A study of Homo sapiens with 4 samples.

Results

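The proteasome genes described here are those whose symbol in GENCODE release 29 begins with PSM, a letter from A to G and a number. The pattern matched 86 annotated symbols, of which 46 had footprints in at least 1 library, out of 16292 transcripts listed in the series. Of these 46, PSMC3IP encodes a recombination factor that is not a proteasome subunit, so 45 genes remained. PSMC3IP had 102 RPKM (reads scaled by length and library size) in the mutant with erythromycin and 65.8 in the mutant without it. In wild type it had 66.4 RPKM with erythromycin and 59.8 without it. The 45 genes comprised 16 core genes (PSMA and PSMB), 20 regulatory genes (PSMC and PSMD) and 9 accessory genes (PSME, PSMF and PSMG). With a floor of 5 RPKM on the mean of the 4 libraries, 42 of the 45 were compared between libraries, in 14 core, 19 regulatory and 9 accessory genes, out of 9612 genes that met the same floor. PSMB9, PSMB11 and PSMD5 did not meet it. PSMA2, PSMA8 and PSMB8 had no footprints listed in any library, and the remaining 37 unlisted symbols were 32 pseudogenes and 5 antisense or long noncoding genes.

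The proteasome degrades proteins that carry ubiquitin. Its core particle is a barrel of stacked rings, with alpha subunits (PSMA) at the ends as gates and beta subunits (PSMB) in the middle, some of which cut peptide bonds. A regulatory particle of ATPases (PSMC), which unfold substrates, and of non-ATPase subunits (PSMD), which bind, trim and position ubiquitin, caps the barrel. Other caps (PSME), an inhibitor (PSMF1) and assembly chaperones (PSMG, and some PSMD proteins) act on the same barrel. When proteasome activity drops, the transcription factor NFE2L1 is known to raise the transcription of many of these genes together.

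The series sequenced ribosome footprints, the mRNA fragments covered by ribosomes, from HEK293, a standard laboratory line of human embryonic kidney origin. There were 4 groups, each of 1 library: RPL4 mutant cells with erythromycin, RPL4 mutant cells without erythromycin, wild type cells with erythromycin and wild type cells without erythromycin. RPL4 is a large-subunit ribosomal protein that reaches into the tunnel through which the new protein leaves, and erythromycin is an antibiotic that binds this tunnel in bacterial ribosomes. The protocols, shared by all 4 libraries, describe stable lines carrying GFP, normal RPL4 or RPL4 without a loop, plus lentiviral hairpins against RPL4 or a scrambled hairpin, and ribosomes held by cycloheximide or lactimidomycin. The labels tie none of these to a particular library, and they give neither the dose of erythromycin nor the length of exposure. With 1 library per group no difference between groups has a replicate check, and intervals in brackets are 95% counting intervals, which cover counting error only. No mRNA libraries were analysed, so a difference in footprints may lie in mRNA amount or in its translation, and in the number of cells or the amount per cell, which cannot be told apart.

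Library depth, recovered from the deposited values, was 993461 reads in the mutant with erythromycin, 604506 in the mutant without it, 2555613 in wild type with it and 2965243 in wild type without it. Footprints on RPL4 stood at 1439, 1707, 2586 and 2515 RPKM in the same order of libraries. This gives the lowest level to the mutant libraries, as a description only, because the labels do not say which form of RPL4 each line made. Of 8 markers chosen for HEK293 cells, KRT8, KRT18, VIM, NEFL and CDH2 had at least 21.9 RPKM in every library, whereas NEFM, PAX2 and LHX1 had at most 7.42 RPKM. Of 8 markers of blood, liver, fibroblasts and red cells, PTPRC and HBA1 were at 0 in all 4 libraries, and COL1A1 was the highest of the others at 6.68 RPKM or less.

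The 45 genes together took 1.06% of all reads (Wilson interval 1.04% to 1.08%) in the mutant with erythromycin and 1.15% (1.12% to 1.18%) in the mutant without it. They took 1.35% (1.33% to 1.36%) in wild type with erythromycin and 1.36% (1.35% to 1.37%) in wild type without it. Both mutant libraries therefore gave a smaller share to the proteasome than both wild type libraries. The regulatory genes held 0.452% and 0.496% in the mutant with and without erythromycin, against 0.626% and 0.605% in wild type with and without it. Accessory genes stayed between 0.078% and 0.091% of reads in all 4 libraries.

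The median core subunit carried more footprints per length than the median regulatory subunit, and the beta ring stood highest. In wild type without erythromycin the median was 913 RPKM in the beta ring, 336 in the alpha ring and 210 in the ATPase and non-ATPase genes. Not every core gene was higher, since PSMA3 had 292.5 RPKM in that library and the ATPase PSMC5 had 427. The median of the 13 listed alpha and beta ring genes was 3.72 times the median of the 17 ATPase and non-ATPase genes in the mutant with erythromycin. The same quotient was 3.45 in the mutant without erythromycin, 3.02 in wild type with it and 3.69 in wild type without it. Within the beta ring the highest gene stood 2.02, 2.37, 2.85 and 2.77 times above the lowest in the same order of libraries. PSMB3, a structural beta subunit, was at 992 RPKM in the mutant with erythromycin, 1028 in the mutant without it, 1304 in wild type with it and 1393 in wild type without it. It was the highest proteasome gene in every library but the mutant without erythromycin, where PSMB1 stood at 1085 RPKM.

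The 3 catalytic beta subunits were set side by side across the libraries. PSMB5, which carries the chymotrypsin-like site and is the target of bortezomib, had 491 RPKM in the mutant with erythromycin, 457 in the mutant without it, 458 in wild type with it and 503 in wild type without it. PSMB6, with the caspase-like site, had 726, 648, 791 and 806 RPKM in the same order. PSMB7, with the trypsin-like site, had 727, 595, 792 and 774 RPKM. PSMB5 was the lowest beta ring gene in every library. For PSMB6 and PSMB7 the lowest library was the mutant without erythromycin. Log2 ratios of mutant over wild type without erythromycin were centred on the median of all tested genes. PSMB7 was at −0.35 (−0.54 to −0.18) and PSMB6 at −0.29 (−0.48 to −0.11), both with counting intervals clear of 0. PSMB5 was at −0.11 (−0.33 to 0.10). The 3 intervals overlap one another, so they do not show that these genes differ. Genes averaging at least 100 RPKM had a median of −0.13 in this comparison, which the interval of PSMB6 includes.

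Of the interferon-induced counterparts, which replace the catalytic subunits in immunoproteasomes, PSMB10 and PSMB9 had low listed values. PSMB10 stood at 22.0 RPKM in the mutant with erythromycin, 20.1 in the mutant without it, 17.1 in wild type with it and 16.8 in wild type without it. PSMB9 rested on 5, 2, 5 and 4 reads, and PSMB11, the thymic form, on 1, 0, 0 and 1 reads in the same order of libraries. PSMB8 was not listed. PSMA2, an essential core subunit, was not listed either, so an unlisted gene need not be untranslated. They differ in annotation, with 100% of the coding bases of PSMA2 and 0% of those of PSMB8 under same-strand exons of another gene. Why PSMB8 was not listed was not tested. The value of PSMB10 is uncertain because of overlapping annotation, described further on. The counts of PSMB9 and PSMB11 cannot show a difference between libraries at this depth.

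Among the 17 ATPase and non-ATPase genes, the highest and the lowest gene were the same in all 4 libraries. PSMD8, a lid subunit, was the highest at 537 RPKM in the mutant with erythromycin, 514 in the mutant without it, 556 in wild type with it and 705 in wild type without it. PSMD1, a large scaffold of the base, was the lowest of the 17 at 54.9, 60.1, 87.5 and 77.0 RPKM. In the ATPase ring, whose 6 subunits occur in equal numbers in the particle, PSMC5 was the highest at 289, 377, 459.6 and 427 RPKM in the same order, and PSMC6 the lowest at 71.4, 79.2, 113 and 87.9 RPKM. Ordered by level, neighbouring genes had overlapping Poisson intervals in 42 of 44 pairs in the mutant with erythromycin, in 44 of 44 in the mutant without it, and in 34 and 35 of 44 in wild type with and without it. Most single steps in the order were therefore not resolved by counting.

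Accessory genes covered a wide span of levels. PSME3, the nuclear activator, had 203 RPKM in the mutant with erythromycin, 263 in the mutant without it, 281 in wild type with it and 274 in wild type without it. PSME4, the large activator known from sperm and DNA repair, was the lowest accessory gene at 11.3, 13.2, 12.7 and 11.1 RPKM in the same order. The mutant with erythromycin was the lowest library for PSME3, while the 4 values of PSME4 lay close together. The chaperones PSMG1 to PSMG4, which build the alpha ring, lay between 41.6 and 180.0 RPKM.

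**Figure D1:**
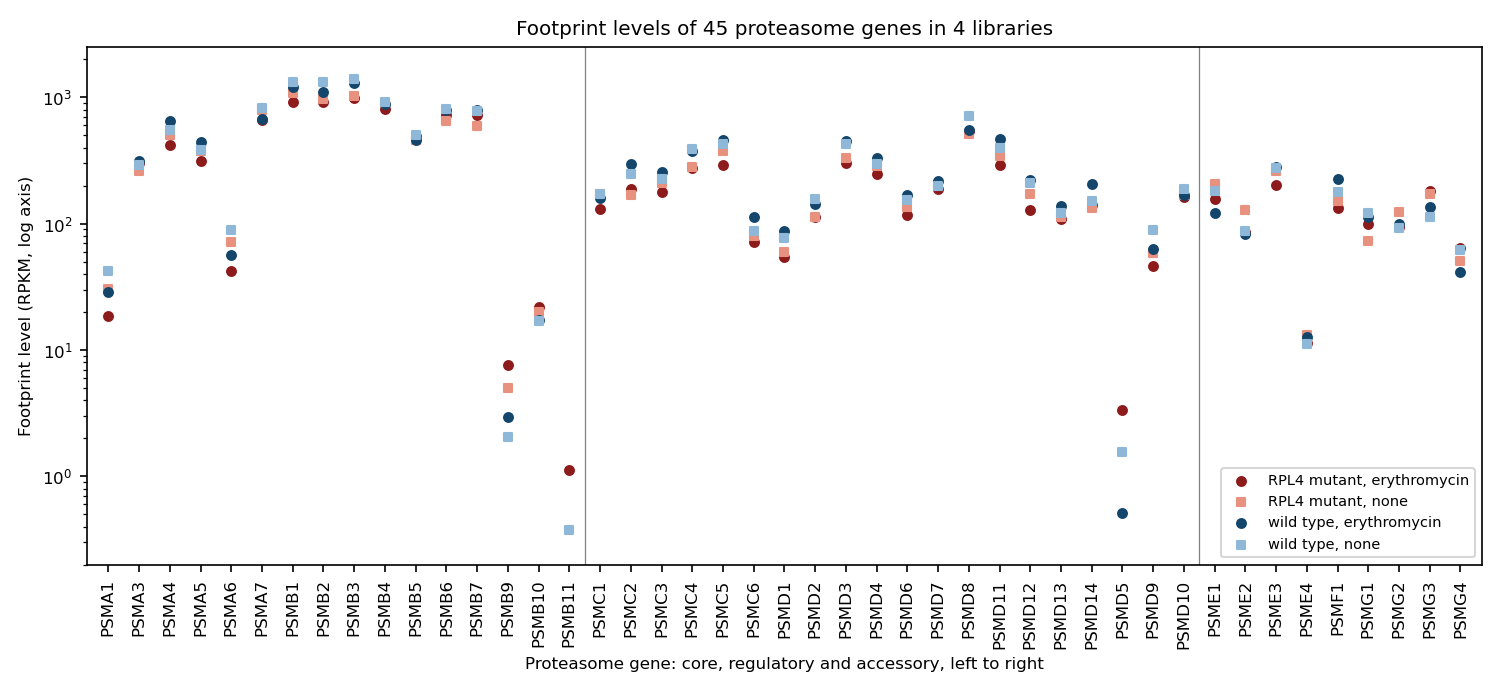
Footprint level in RPKM (log axis) of the 45 listed proteasome genes in each of the 4 libraries, 1 point per library, with values of 0 not drawn. Beta ring genes PSMB1 to PSMB7 lie between 457 and 1393 RPKM, while PSMA1 and PSMA6 lie between 18.6 and 89.8 RPKM and PSMB9, PSMB11 and PSMD5 at 7.63 RPKM or less.

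Some low values coincided with overlapping annotation. PSMA1, an alpha ring subunit, had 18.6 RPKM in the mutant with erythromycin, 30.6 in the mutant without it, 28.98 in wild type with it and 42.1 in wild type without it. PSMA6, also of the alpha ring, had 42.4, 71.9, 56.7 and 89.8 RPKM. The 4 other listed alpha genes averaged 292 RPKM or more over the libraries, although all alpha subunits occur in equal numbers in the barrel. In GENCODE 29, 88.6% of the coding bases of PSMA1 and 87.6% of those of PSMA6 lie under exons of another gene on the same strand. The other members above 50%, a threshold chosen after the values were seen, were PSMB10 with 60.1%, the base assembly chaperone PSMD9 with 68.5%, and PSMA2 with 100%, which was not listed. The highest mean among these 5 genes was 65.2 RPKM. The gene over PSMA1, AC018523.2, was itself listed at 2.03, 16.7, 13.4 and 23.8 RPKM in the same order of libraries, and the genes over the other 4 were not listed.

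Sequence shared with genes elsewhere was read as well. In PSMC1, an ATPase, 99.8% of the 28-base windows of the coding sequence also occur in transcripts of 13 genes elsewhere, and it averaged 159 RPKM. PSMC6 averaged 87.8 RPKM, and the other ATPases, with smaller shares, averaged 217 RPKM or more. The corresponding shares were 63.3% for PSMC6, 51.9% for PSME2 and 51.1% for PSMA6, and 25 of the 48 protein-coding members had no window in another gene. Outside the ATPases, level did not always go with the share. PSMD4 shared 45.0% and averaged 290 RPKM, while PSMD1 shared 0% and averaged 69.9 RPKM. PSMD5, a base assembly chaperone, shares no window and was yet near absent, with 5 reads in the mutant with erythromycin, 0 in the mutant without it, 2 in wild type with it and 7 in wild type without it. How the authors' counter handled overlapping or shared sequence is not given in the sources used here, and its part in these levels was not tested. Values of PSMA1, PSMA6, PSMB10 and PSMD9 are uncertain for this reason, as are those of PSMC1, PSMC6 and PSME2 because of shared windows.

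**Figure D2:**
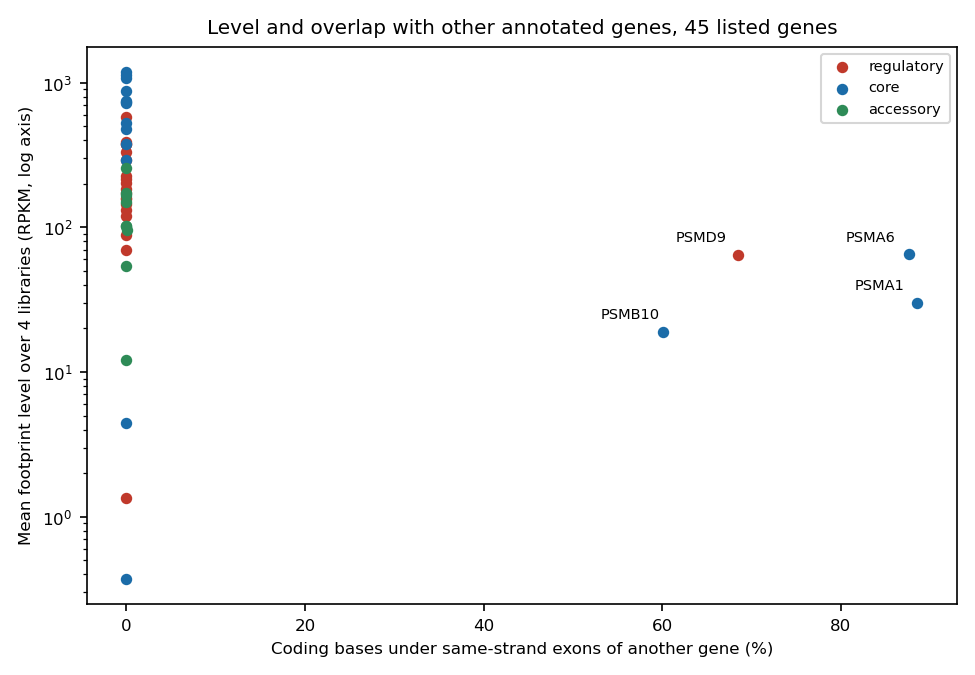
Mean footprint level over the 4 libraries (RPKM, log axis) against the share of coding bases under same-strand exons of another gene, 1 point per listed gene. The 4 labelled genes above 50% overlap lie at or below 65.2 RPKM, and most genes without overlap lie higher.

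Erythromycin was compared with no erythromycin within each genotype, as log2 ratios of RPKM plus 1 centred on the median of the 9612 genes. In the mutant, regulatory genes lay below 0 as a group, whereas in wild type they lay above it. The regulatory median was −0.20 in the mutant and 0.13 in wild type, the core median −0.18 and −0.06, and the accessory median −0.26 and 0.06. Of the 19 regulatory genes, 16 were below 0 in the mutant and 6 in wild type, and 11 were above 0 in wild type and below it in the mutant, a pattern found for 24.7% of all tested genes. Both genotypes had 50% of all tested genes below 0 by construction and 50% above.

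In the mutant, 31 of the 42 proteasome genes were below 0, and among genes averaging at least 100 RPKM, a level chosen after the values were seen, 24 of 33 proteasome genes and 57.8% of 1721 genes were. Counting intervals lay wholly below 0 for 14 of the 42 and wholly above 0 for 1, against 7.68% and 7.18% of tested genes. Interval counts follow depth, and proteasome genes are more deeply covered than most. A 1.5-fold lower value was found for PSMA1, PSMA6 and PSME2, against 10.7% of tested genes, and a 1.5-fold higher value for none, against 15.4%. None reached 2-fold, against 3.39% of tested genes lower and 6.22% higher.

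The lowest were PSMA6 at −0.80 (−1.56 to −0.07), PSMA1 at −0.74 (−1.90 to 0.37) and the activator subunit PSME2 at −0.62 (−1.16 to −0.10). PSMA6 and PSMA1 are the alpha genes with the overlapping annotation and rest on 32 and 15 reads with erythromycin and 33 and 15 without it. The highest were the core assembly chaperones PSMG1 at 0.40 (−0.16 to 1.00) and PSMG4 at 0.27 (−0.66 to 1.27), and PSMB7 at 0.24 (0.03 to 0.44). PSMB7 was thus the only proteasome gene whose interval lay above 0 in the mutant. All 4 PSME activators were below 0 in the mutant, with 3 intervals clear of 0.

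In wild type, 19 of the 42 were below 0, as were 14 of the 33 proteasome genes and 46.5% of all genes averaging at least 100 RPKM. Intervals lay wholly below 0 for 10 and wholly above 0 for 11, against 13.8% and 14.2% of tested genes. Only PSMA6 was at least 1.5-fold lower and none was at least 1.5-fold higher, against 6.52% and 6.29% of tested genes. None reached 2-fold, against 1.54% lower and 1.73% higher.

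The highest were PSMD14 at 0.47 (0.28 to 0.66), the enzyme that removes ubiquitin chains from substrates, the ATPase PSMC6 at 0.37 (0.15 to 0.60) and the inhibitor PSMF1 at 0.33 (0.14 to 0.53). PSMD14 had 207 RPKM in wild type with erythromycin and 151 without it. The lowest were PSMA6 at −0.64 (−0.996 to −0.305), the activator PSME1 at −0.55 (−0.79 to −0.32) and PSMG4 at −0.54 (−1.07 to −0.04). The beta ring had 6 of 7 genes below 0, yet none beyond −0.26.

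**Figure D3:**
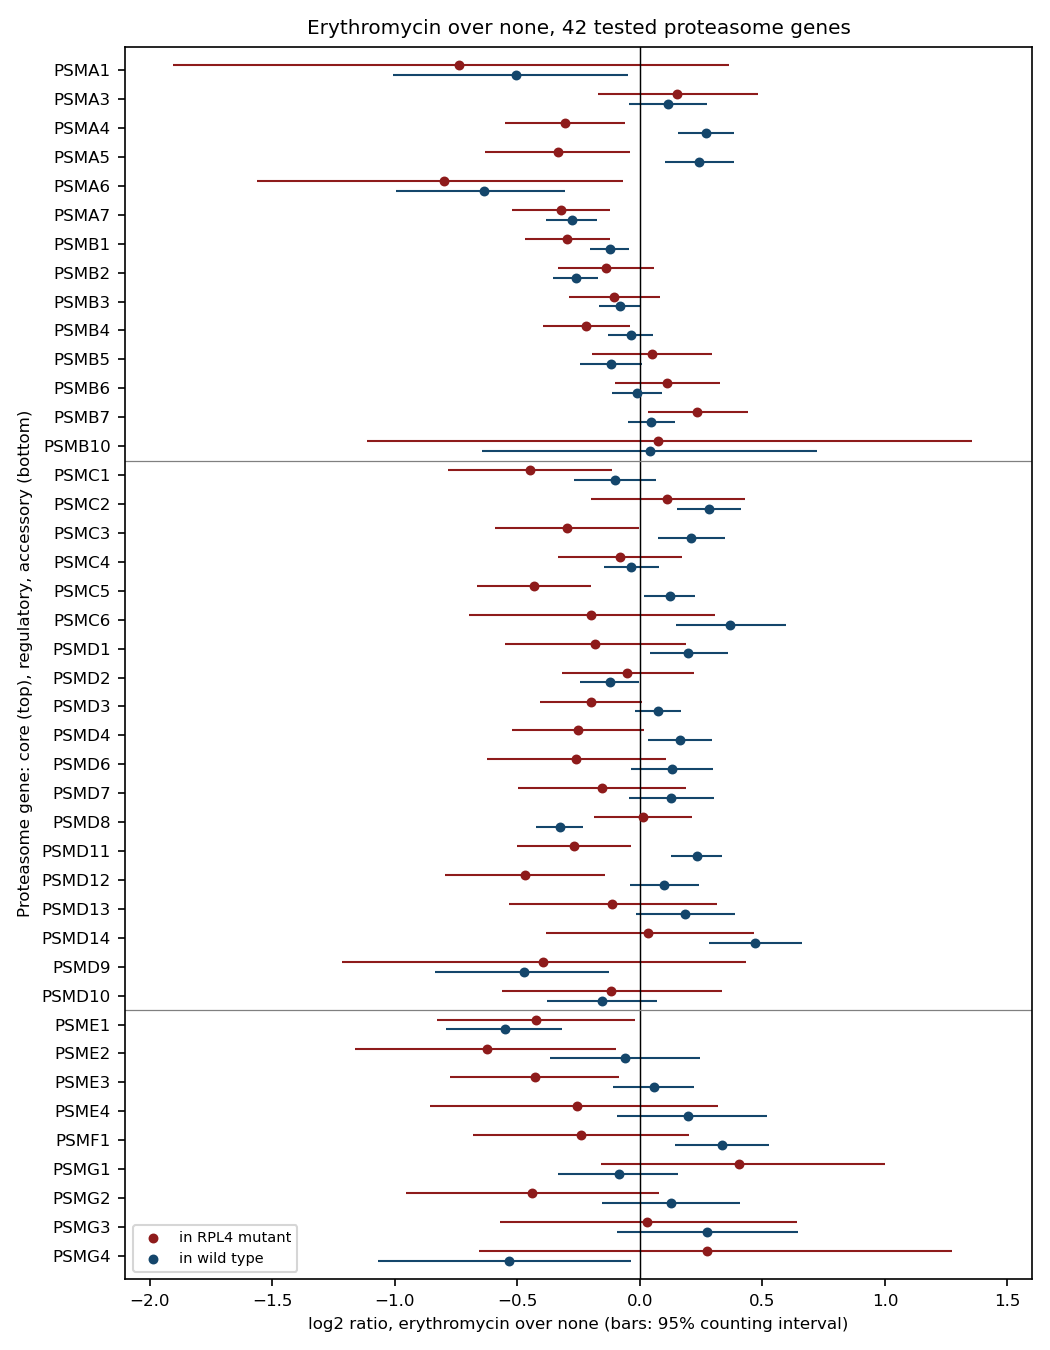
Log2 ratio of erythromycin over none for the 42 tested proteasome genes, with 95% counting intervals, in the RPL4 mutant (red, upper) and wild type (blue, lower); grey lines separate core, regulatory and accessory genes. In the regulatory block 16 of 19 red points lie left of 0 and 13 of 19 blue points lie right of it.

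The difference between the 2 responses, mutant minus wild type, had a regulatory median of −0.35, an accessory median of −0.46 and a core median of −0.04, which was 0.03 without centring and 0.04 centred on genes averaging at least 100 RPKM. The median over all 42 was −0.24, with 29 genes below 0 and 13 above, against 50% of tested genes on each side and 56.7% below 0 among genes averaging at least 100 RPKM (23 of 33 proteasome genes). Intervals lay wholly below 0 for 13 genes and wholly above 0 for 1, against 10.5% and 9.04% of tested genes. PSMG4 alone was at least 1.5-fold higher, against 18.8% of tested genes, and none was at least 1.5-fold lower, against 15.1%. The absence of 1.5-fold lower genes rests on the centre and the floor, since 3 genes lay at −0.58, just short of that fold. It became 3 of 42 genes with a trimmed mean as the centre, 7 of 44 with a floor of 1 RPKM and 8 of 45 with no floor. None reached 2-fold, against 8.29% higher and 5.6% lower.

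The ATPase ring had all 6 members below 0, with a median of −0.43, and the beta ring had 3 of 7 below 0, with a median of 0.12. Among tested genes 50% were below 0, and 56.7% of genes averaging at least 100 RPKM. Intervals lay wholly below 0 for 3 of the 6 ATPases and 0 of the 7 beta ring genes. The count of 6 rests on the centre, since PSMC4 was at −0.05 (−0.32 to 0.22) and centring had lowered all genes by 0.072. The lowest members were PSMA5 at −0.58 (−0.91 to −0.26), PSMA4 at −0.58 (−0.85 to −0.32) and PSMF1 at −0.58 (−1.05 to −0.12). PSMA4 and PSMA5 are alpha ring subunits, so a low value was not limited to the regulatory particle. The highest were PSMG4 at 0.80 (−0.20 to 1.84), PSMG1 at 0.49 (−0.11 to 1.09) and PSMD8 at 0.34 (0.12 to 0.55). PSMD8 was the only gene with an interval above 0, and it went with a wild type response of −0.33 (−0.42 to −0.23) and a mutant response of 0.01 (−0.19 to 0.21). In 5 genes, PSMA4, PSMA5, PSMC3, PSMC5 and PSMD11, the interval lay below 0 in the mutant and above 0 in wild type, against intervals clear of 0 on opposite sides in 2.89% of tested genes, and the count was 4 on a common sum and 1 centred on genes averaging at least 100 RPKM.

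The RPL4 mutant was compared with wild type under each treatment. Under erythromycin all 19 regulatory genes were lower in the mutant, with a median of −0.58, which was the regulatory median farthest from 0 in the 4 comparisons. The core median was −0.26 and the accessory median −0.15, and accessory genes lay farther from 0 for erythromycin in the mutant, at −0.26. These comparisons use the same 4 libraries as the erythromycin responses, so their values are not independent of those above. Under erythromycin 37 of the 42 proteasome genes were below 0 and 5 above, against 50% of tested genes on each side. Among genes averaging at least 100 RPKM 68.3% were below 0, as were 30 of 33 proteasome genes and all 16 regulatory ones, and the median of these 1721 genes was −0.19.

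Counting intervals lay wholly below 0 for 26 proteasome genes and wholly above 0 for none, against 16.9% and 16.1% of tested genes. Values at least 1.5-fold lower were found for 12 genes, 9 of them regulatory, against 11.3% of tested genes, and at least 1.5-fold higher for none, against 16.8%. None reached 2-fold, against 2.26% lower and 7.02% higher. The extent depended on the centre chosen. On a common sum of RPKM, which moved all genes by 0.14, 17 of 19 regulatory genes and 32 of the 42 proteasome genes were below 0, and 5 proteasome genes were at least 1.5-fold lower. The regulatory median was then −0.44, the core median −0.118 and the accessory median −0.016. Centred on the genes averaging at least 100 RPKM, which moved all by 0.19, 17 of 19 were below 0 with a median of −0.39, 31 of the 42 proteasome genes were below 0, and 2 were at least 1.5-fold lower. The core median was −0.072 and the accessory median 0.03 on that centre.

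PSMD12, a lid subunit encoded on chromosome 17 from 67337916 to 67366627 (GRCh38), was the lowest at −0.84 (−1.09 to −0.61). It had 129 RPKM in the mutant with erythromycin, 173 in the mutant without it, 223 in wild type with it and 210.1 in wild type without it. Both mutant values were below both wild type values. PSMF1 followed at −0.81 (−1.13 to −0.51), with 133, 152, 224 and 179 RPKM in the same order, again with the mutant libraries lowest. PSMC5 was at −0.73 (−0.90 to −0.56), with the levels given above.

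The other regulatory genes ranged from −0.73 to −0.11. PSMD11, a lid subunit, was at −0.73 (−0.90 to −0.56), with 293, 340.2, 465 and 400.0 RPKM in the same order of libraries. PSMD1 was also at −0.73 (−0.998 to −0.481), the ATPase PSMC2 at −0.70 (−0.91 to −0.50) and the lid subunit PSMD3 at −0.64 (−0.79 to −0.49). PSMD4, a ubiquitin receptor, was at −0.49 (−0.68 to −0.29), and PSMD2, a scaffold of the base, at −0.41 (−0.60 to −0.22). PSMD8 at −0.11 (−0.25 to 0.03), the assembly chaperone PSMD10 at −0.11 (−0.44 to 0.21) and PSMD9 at −0.51 (−1.14 to 0.07) were the 3 regulatory genes whose intervals reached 0. The other 8 lay between PSMC6 at −0.71 (−1.08 to −0.38) and PSMD7 at −0.27 (−0.52 to −0.02).

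In the core particle, PSMA4 at −0.70 (−0.88 to −0.52) and PSMA5 at −0.58 (−0.80 to −0.37) were as low as many regulatory genes. PSMA4 had 420.0 RPKM in the mutant with erythromycin, 501 in the mutant without it, 653 in wild type with it and 548 in wild type without it. The catalytic subunits were nearer 0, with PSMB5 at 0.04 (−0.14 to 0.21), PSMB6 at −0.19 (−0.34 to −0.04) and PSMB7 at −0.19 (−0.32 to −0.05). The highest proteasome genes were accessory: PSMG4 at 0.54 (−0.14 to 1.22), PSMG3 at 0.34 (−0.11 to 0.79) and PSME1 at 0.31 (−0.02 to 0.64). All 3 intervals included 0.

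Without erythromycin the regulatory median lay nearer 0. The regulatory median was −0.17, the core median −0.20 and the accessory median 0.20, with 32 of the 42 genes below 0 and 10 above, against 50% of tested genes on each side. Among genes averaging at least 100 RPKM 66.1% were below 0, as were 26 of 33 proteasome genes. The class medians depended on the centre. Centred on those genes the regulatory median was −0.032, the core median −0.069 and the accessory median 0.34, with 23 of the 42 genes below 0. On a common sum the same medians were −0.081, −0.119 and 0.29, with 27 genes below 0. Intervals lay wholly below 0 for 14 and wholly above 0 for 2, against 9.31% and 9.47% of tested genes. PSMG1 was at least 1.5-fold lower, against 10.4% of tested genes, and PSMG3 at least 1.5-fold higher, against 13.3%. None reached 2-fold, against 3.32% lower and 5.29% higher.

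The lowest were PSMG1 at −0.72 (−1.25 to −0.24), PSMD9 at −0.56 (−1.25 to 0.05) and PSMC2 at −0.51 (−0.79 to −0.25). The highest were PSMG3 at 0.61 (0.05 to 1.15), PSME2 at 0.57 (0.13 to 1.00) and PSMG2 at 0.43 (−0.01 to 0.86). The partners of the chaperone pair that builds the alpha ring, PSMG1 and PSMG2, thus lay on opposite sides of 0. PSMG1 rested on 38 reads and PSMG2 on 59 in the mutant without erythromycin, against 314 and 218 in wild type without it. PSMG1 had 99.9 RPKM in the mutant with erythromycin, 72.5 in the mutant without it, 114 in wild type with it and 122 in wild type without it.

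**Figure D4:**
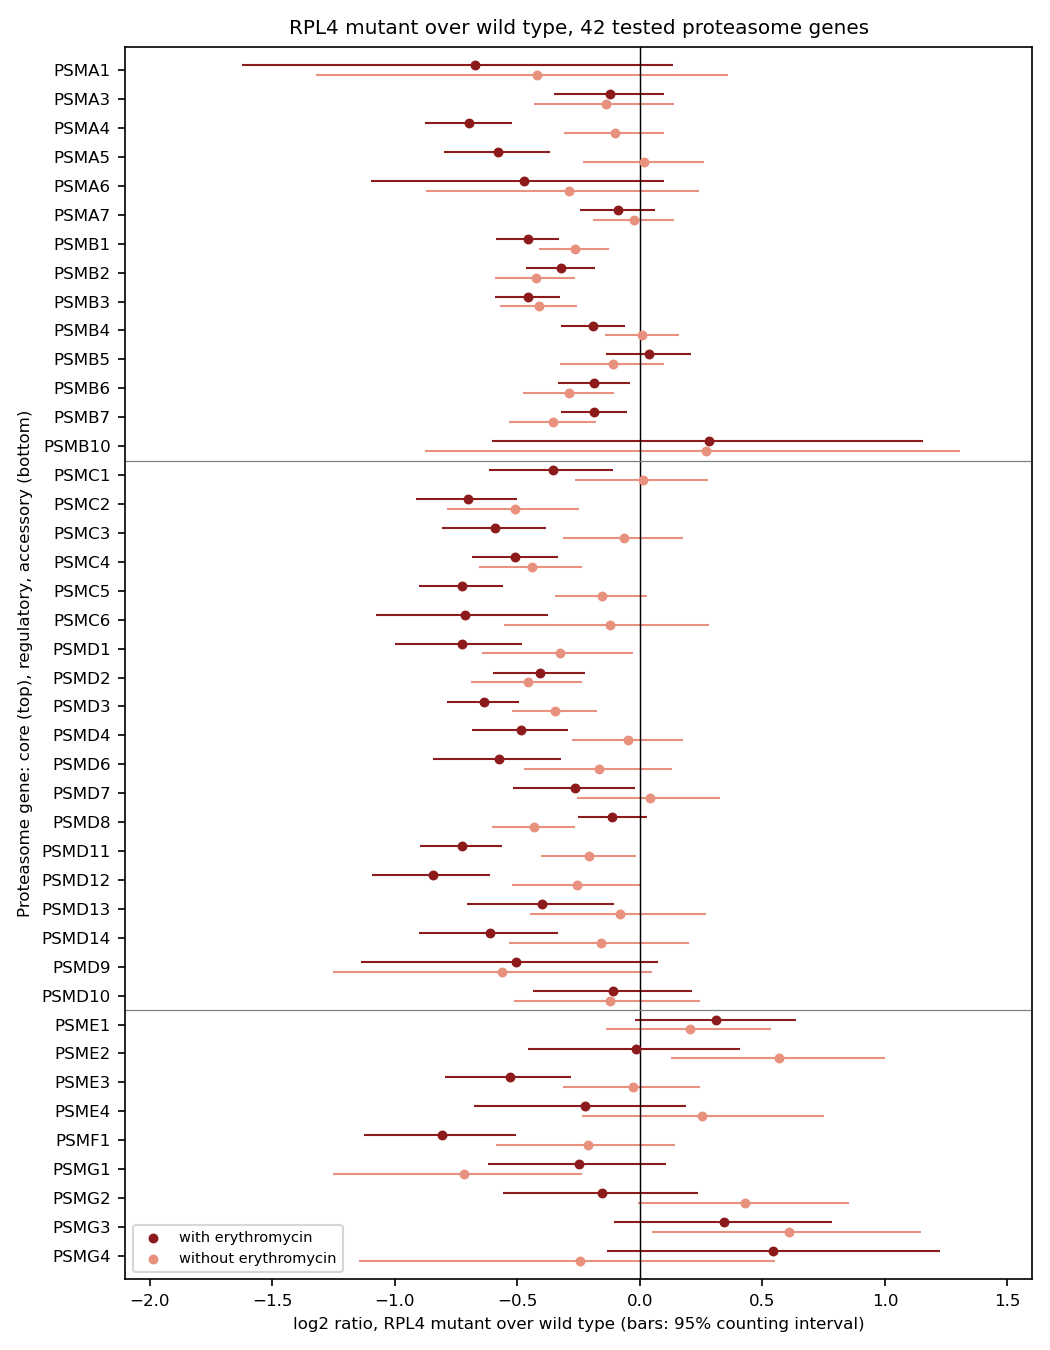
Log2 ratio of RPL4 mutant over wild type for the 42 tested proteasome genes, with 95% counting intervals, with erythromycin (upper) and without it (lower); grey lines separate core, regulatory and accessory genes. With erythromycin all 19 regulatory points lie left of 0 and 16 of their intervals exclude it.

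Across the 4 libraries, the lowest level of a gene was in the mutant with erythromycin for 26 of the 42 genes and in the mutant without it for 9, against 25.4% and 28.6% of all tested genes, and 37.4% and 31.3% of genes averaging at least 100 RPKM. The highest level was in wild type with erythromycin for 19 and in wild type without it for 16, against 22.3% and 21.6% of all tested genes, and 35.3% and 32.3% of genes averaging at least 100 RPKM. The lowest level was in wild type with erythromycin for 3 genes and in wild type without it for 4, against 25.3% and 20.7% of tested genes, and the highest was in the mutant with erythromycin for 3 and in the mutant without it for 4, against 32.5% and 23.6%. In the mutant, 17 of 19 regulatory genes were below wild type under both treatments and none was above under both. The corresponding count was 10 of 14 for core genes and 3 of 9 for accessory genes, and 29.7% of all tested genes. These counts rest on the centre of all tested genes. Without erythromycin, genes averaging at least 100 RPKM had a median of −0.13. Several regulatory genes lay above it, such as PSMC3 at −0.066 and PSMD4 at −0.048. On that centre fewer than 17 regulatory genes would be below wild type under both treatments. The mutant libraries were also the shallowest, with 604506 and 993461 reads, so depth and genotype cannot be told apart.

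**Figure D5:**
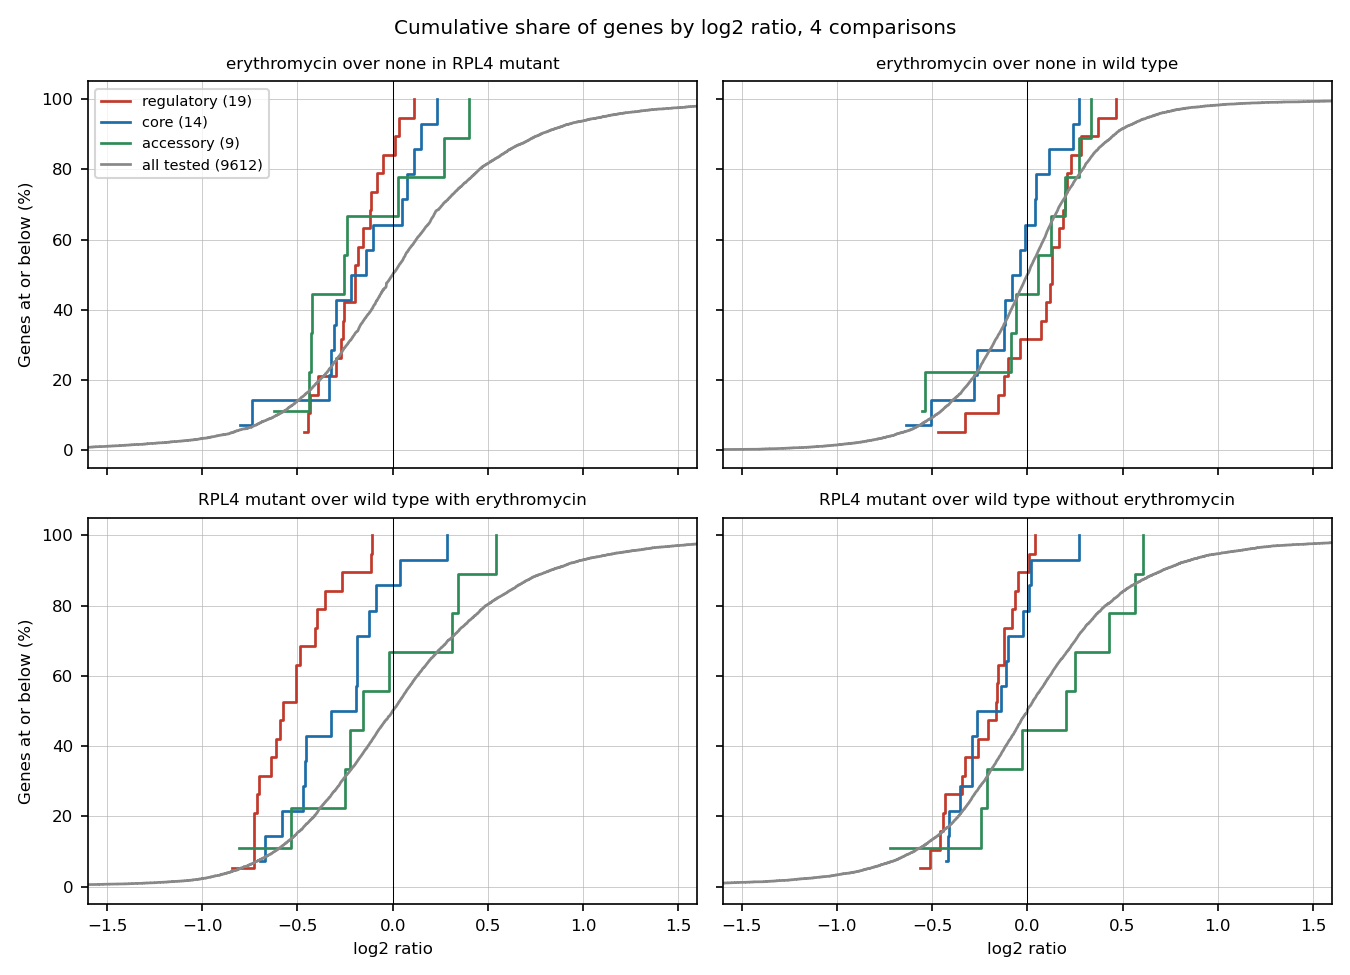
Cumulative share of genes (%) by log2 ratio in the 4 comparisons, for 19 regulatory, 14 core and 9 accessory genes and for all 9612 tested genes. The regulatory curve lies left of all genes for mutant over wild type with erythromycin, with a median of −0.58, and right of them for erythromycin in wild type, with a median of 0.13.

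An additive limma model of genotype and treatment, which treats the difference between the responses as error and has 1 residual degree of freedom, called no proteasome gene. Each library was centred on its own median, which left all tested genes with a median of −0.064 for mutant over wild type. Genes averaging at least 100 RPKM leaned below 0 in the mutant, at −0.19 with erythromycin and −0.13 without it. Their share of limma calls was not computed. For mutant over wild type, limma called 1.5% of tested genes as risen and 0.427% as fallen at a Benjamini-Hochberg adjusted p below 0.05. The lowest adjusted p of a proteasome gene was 0.16, for PSMC2 at −0.66 ± 0.22 (SE) and PSMB3 at −0.49 ± 0.16 (SE), both lower in the mutant under each treatment. At an unadjusted p below 0.05, 15 proteasome genes were negative and 0 positive, against 7.58% and 5.88% of tested genes. For erythromycin over none, limma called 0.218% as risen and 0.0104% as fallen, and the lowest adjusted p of a proteasome gene was 0.573, for PSMA6. At an unadjusted p below 0.05, 3 proteasome genes were negative and 0 positive, against 2.5% and 3.71% of tested genes.

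Genes that work with the proteasome were read from a list of 42, of which 40 were tested. Their medians were −0.41 for mutant over wild type with erythromycin and −0.12 without it, and −0.07 for erythromycin in the mutant and 0.11 in wild type. Under erythromycin all 6 genes for ubiquitin and its activation were lower in the mutant, with a median of −0.59, as were 11 of 14 proteasome-associated proteins and 10 of 12 shuttle and extraction factors. The transcription factor route had 3 of 8 lower. Of all tested genes 50% were below 0 in that comparison, and 68.3% of genes averaging at least 100 RPKM. A count such as 11 of 14 is not far from the share among genes of high level. That share is not matched to the 14 in level, since some, such as ECPAS and UBE3A, had 22.6 RPKM or less in every library. RPS27A, which encodes ubiquitin fused to a ribosomal protein, was the only gene of the list that passed limma, and it fell in the mutant by 0.57 on the log2 scale with an adjusted p of 0.048. It had 2161 RPKM in the mutant with erythromycin, 2069 in the mutant without it, 3186 in wild type with it and 2796 in wild type without it.

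VCP, the ATPase that extracts ubiquitinated proteins, was at −0.99 (−1.18 to −0.81) for mutant over wild type with erythromycin, and at −0.72 (−0.95 to −0.51) without it. It had 118 and 128 RPKM in the mutant with and without erythromycin, against 225 and 215 in wild type with and without it. The shuttle gene UBQLN2 was at −0.87 (−1.47 to −0.37) without erythromycin, and the VCP cofactor gene FAF1 was at −0.57 (−1.09 to −0.07) for erythromycin in the mutant. SEL1L, a part of the endoplasmic reticulum degradation complex, was at 0.79 (−0.05 to 1.83) for erythromycin in the mutant and 0.62 (0.24 to 1.07) in wild type. NFE2L1 itself stayed near 0, at 0.04 (−0.49 to 0.60) for erythromycin in the mutant, 0.24 (−0.03 to 0.51) in wild type, −0.24 (−0.63 to 0.13) for mutant over wild type with erythromycin and −0.03 (−0.52 to 0.43) without it.

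In the 4 comparisons, values beyond 2-fold on this list were found for ZFAND2A and MAFF only. ZFAND2A, a proteasome-associated stress protein, had 5.56 RPKM in the mutant with erythromycin, 15.2 in the mutant without it, 15.9 in wild type with it and 9.32 in wild type without it. It was at −1.36 (−4.19 to 0.86) for erythromycin in the mutant, 0.72 (−0.23 to 1.83) in wild type, −1.42 (−3.96 to 0.16) for mutant over wild type with erythromycin and 0.68 (−1.08 to 2.27) without it. All 4 of its intervals include 0. MAFF, a small MAF protein that pairs with NFE2L1, had 34.6 RPKM in the mutant with erythromycin, 20.1 in the mutant without it, 24.5 in wild type with it and 67.5 in wild type without it. Its highest library was wild type without erythromycin, and its ratios were −1.41 (−2.08 to −0.85) for erythromycin in wild type and −1.68 (−3.21 to −0.55) for mutant over wild type without erythromycin. For erythromycin in the mutant it was at 0.70 (−0.68 to 2.36), and for mutant over wild type with erythromycin at 0.42 (−0.51 to 1.33). The intervals of its relatives include 0. MAFK was at −0.93 (−2.103 to 0.029) for erythromycin in wild type and 0.48 (−1.06 to 1.99) for mutant over wild type with erythromycin, and MAFG at 0.50 (−0.55 to 1.47) for mutant over wild type without erythromycin. SEM1 was not listed, and DDI1 did not meet the floor.

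Promoters were read because regulatory genes lay on the same side of 0 together and because NFE2L1 binds antioxidant response elements. Windows from 250 bases before to 50 after each gene's start were available for 36 of the 42 genes (RefSeq, GRCh38.p14), and 3 motifs were searched on both strands. That start can lie far from the start of the listed transcript. For PSMG2, 1 of the genes with the first motif below, the window ends at 12658787 and the listed transcript starts at 12702426. The core of the antioxidant response element, TGACNNNGC, was present in 11 of the 36, which is 30.6%, against 15.7% of 7678 tested genes and 13.3% of all 35116 promoters. CCAAT was present in 16, or 44.4%, against 38% and 34.6%. GGAAGTG, a form of the ETS site, was present in 9, or 25%, against 16.4% and 11.2%. The motifs were chosen with the ratios already known, and a match describes letters, not binding.

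The 3 windows below are those of PSMD12, the lowest gene for mutant over wild type with erythromycin, of PSMD3, which has a pair of matches, and of PSMC5, which was among the 3 lowest and has no match in its window. All lie on chromosome 17 of GRCh38.p14: PSMD12 on the minus strand at chr17:67366528-67366827, PSMD3 on the plus strand at chr17:39980557-39980856 and PSMC5 on the plus strand at chr17:63827181-63827480. The listed transcript of PSMC5 starts at 63827183, so its window lies almost wholly after that start. The bases before the start of that transcript were therefore not searched. Each window is written 5′ to 3′ along the gene's strand, and capitals mark TGACNNNGC on either strand.
PSMD12: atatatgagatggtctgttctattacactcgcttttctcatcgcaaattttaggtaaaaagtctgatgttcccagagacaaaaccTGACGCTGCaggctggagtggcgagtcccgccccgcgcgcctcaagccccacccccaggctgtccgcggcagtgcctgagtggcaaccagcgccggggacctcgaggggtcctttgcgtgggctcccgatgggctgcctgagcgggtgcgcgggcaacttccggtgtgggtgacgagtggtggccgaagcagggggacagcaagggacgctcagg
PSMD3: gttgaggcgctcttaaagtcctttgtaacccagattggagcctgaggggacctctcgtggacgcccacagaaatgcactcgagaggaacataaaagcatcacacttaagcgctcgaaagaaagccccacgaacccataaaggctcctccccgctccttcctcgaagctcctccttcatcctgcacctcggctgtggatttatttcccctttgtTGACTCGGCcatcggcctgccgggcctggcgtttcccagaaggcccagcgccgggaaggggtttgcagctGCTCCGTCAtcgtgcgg
PSMC5: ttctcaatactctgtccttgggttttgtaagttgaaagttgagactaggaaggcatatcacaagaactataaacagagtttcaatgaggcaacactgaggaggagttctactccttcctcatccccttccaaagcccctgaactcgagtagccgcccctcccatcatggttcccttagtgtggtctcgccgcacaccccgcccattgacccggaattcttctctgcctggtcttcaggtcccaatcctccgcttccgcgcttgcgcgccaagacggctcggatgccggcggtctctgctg

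The PSMD12 match begins 165 bases before the start. Those of PSMD3 begin 37 bases before the start and 33 after it, the second on the opposite strand. For mutant over wild type with erythromycin, the 11 genes with the motif had a median of −0.46 and the 25 without it −0.47. Within the regulatory genes the medians were −0.64 for 5 genes with the motif and −0.58 for 13 without it. Within the accessory genes they were −0.154 for 5 with it and −0.53 for 3 without it. For mutant over wild type without erythromycin the medians were −0.325 with the motif and −0.14 without it over all 36 genes, and −0.345 and −0.155 within the regulatory genes. For erythromycin over none they were −0.26 with the motif and −0.20 without it in the mutant, and −0.036 and 0.11 in wild type. The side on which genes with the motif lay relative to those without it thus differed between classes and comparisons.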

How the data were processed

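Ribosome footprints were measured in 4 HEK293 libraries, 1 per group. The authors deposited 1 RPKM value per transcript, scaled by length and by library reads. Per the submitters' processing notes, the build was GRCh38 and the tools included STAR and cutadapt. No source used here gives the read counter or its annotation. Unlisted transcripts were set to 0. Of 16292 transcripts, 16172 were matched to GENCODE 29. RPKM times coding length gave whole reads, within 0.001 reads, for 99.05% to 99.09% of transcripts with a length; 155 tested genes lack recovered reads and have no interval.

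Ratios are differences of log2(RPKM + 1), centred on the median of the 9612 genes averaging 5 RPKM or more, and understate changes of low genes. Intervals are exact Clopper-Pearson at 95% without the added 1, except those of the difference between responses, which are normal approximations. Effects were tested with limma 3.58.1 (R 4.3.3), with a variance trend and Benjamini-Hochberg adjustment over all tested genes at 0.05. The model was also run on simulated reads with counting noise and no difference between the responses. In the real fit that difference serves as error, so the simulation cannot vouch for the calls. With 1 library per group, no p is given for single ratios. Any tested member could be named; always named were the 3 highest and 3 lowest in each quantity, the catalytic and interferon-induced beta subunits, and, of the partner list, genes beyond 2-fold, the 2 highest and 2 lowest in each comparison and NFE2L1. The members and lists were chosen with earlier results of these data known. Alternatives were other pseudocounts, filters, scalings and models.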

Additional observations from a re-analysis of the deposited data

Results flagged for a closer look

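In 5 proteasome genes the erythromycin response lay on opposite sides of 0 in the 2 genotypes, with both counting intervals clear of 0, as in 2.89% of tested genes. Interval calls follow depth, and this count rests on the centre: 4 genes remained on a common sum (without PSMC3), 2 without centring (PSMA4 and PSMC5) and PSMA4 alone when centred on genes averaging at least 100 RPKM. The difference itself has no replicate and was not tested. For each gene it is given first as the response in the mutant minus that in wild type, on the log2 scale.

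PSMA4, an alpha ring subunit, differed by −0.58, from −0.31 (−0.55 to −0.06) in the mutant and 0.27 (0.16 to 0.38) in wild type. PSMA5, also of the alpha ring, differed by −0.58, from −0.34 (−0.63 to −0.04) in the mutant and 0.24 (0.10 to 0.38) in wild type. PSMC3, an ATPase, differed by −0.51, from −0.30 (−0.59 to −0.003) in the mutant and 0.21 (0.07 to 0.35) in wild type. PSMC5, another ATPase, differed by −0.56, from −0.43 (−0.66 to −0.20) in the mutant and 0.12 (0.02 to 0.23) in wild type. PSMD11, a lid subunit, differed by −0.50, from −0.27 (−0.50 to −0.04) in the mutant and 0.23 (0.13 to 0.34) in wild type. The mutant libraries hold 993461 and 604506 reads with and without erythromycin, against 2555613 and 2965243 in wild type, and the part of depth was not tested.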

How the results depend on the processing

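No paired analysis was possible because each group has 1 library and the labels link none of them. Of 142 values recomputed under other pseudocounts, filters, scalings, member sets or models, 136 differed by less than their counting error or kept their count and 6 moved by more. The 136 include core minus regulatory medians under other centres, which a change of centre cannot move. They also include limma counts that were 0 throughout, so the tally does not measure how stable the results are. The median of the proteasome genes for mutant over wild type with erythromycin, −0.43, was −0.35 with a floor of 20 RPKM, −0.36 with at least 20 reads expected, −0.29 on a common sum of RPKM and −0.25 centred on genes averaging at least 100 RPKM. Without erythromycin the same median, −0.16, was −0.072 on a common sum and −0.022 centred on the genes averaging at least 100 RPKM. Proteasome genes at least 1.5-fold lower in the mutant with erythromycin numbered 12, against 5 on a common sum and 2 on the centre of genes averaging at least 100 RPKM. Each of these moves the centre of all genes, and the cause of the differing centres was not tested. A change of centre cancels in core minus regulatory medians, so only filters, pseudocounts and member sets bear on them. For mutant over wild type with erythromycin this difference, 0.32, lay between 0.254 (floor of 20 RPKM) and 0.393 (without overlapped genes). In 3 cases, each within counting error of 0, its sign changed: without erythromycin −0.038 became 0.046 (floor of 1 RPKM) and 0.021 (without overlapped genes), and for erythromycin in the mutant 0.02 became −0.019 (floor of 20 RPKM). limma called 0 proteasome genes under all settings run. The centring on genes of at least 100 RPKM, and leaving out genes mostly under other exons, were chosen after seeing the data. PSMB9, PSMB11 and PSMD5 lay under the floor and give no ratio, with 7 reads or fewer in every library. Low depth in the mutant leaves wide intervals for PSMA1, PSMA6, PSMB10 and PSMG4. Leaving out a replicate was not possible with 1 library per group.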

Other observations

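PSME1 and PSME2, which together form the interferon-induced activator cap, lie close together on chromosome 14, from 24136200 to 24138964 and from 24143365 to 24146646 (GRCh38). PSME1 had 158 RPKM in the mutant with erythromycin, 204 in the mutant without it, 122 in wild type with it and 181 in wild type without it. PSME2 had 85.5, 128, 82.9 and 87.3 RPKM in the same order, so the level of PSME1 per length was the higher in each library. Both genes had their highest level in the mutant without erythromycin. Of the 28-base windows of PSME2, 51.9% also occur in other genes, and their part in its level was not tested.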
